A study of Mus musculus with 6 samples.

Results

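Type I spiral ganglion neuron subtype genes were described in RNA of the cochlear modiolus, the central bone of the inner ear in which spiral ganglion neurons (SGNs) lie. The members were 7 listed genes, out of 33676 genes with a counted transcript, and were chosen by name as markers of molecular subtypes: Calb2, Pcdh20 and Rxrg for subtype Ia, and Lypd1, Runx1, Grm8 and Pou4f1 for subtype Ic. All 7 passed the filter on low counts. The comparison was between 3 control and 3 degenerated libraries from mice of strain C57BL/6. The study's methods give 8-week-old male mice, which in the degenerated group received 1 g/kg kanamycin sulfate under the skin and, 30 min later, 0.4 g/kg furosemide into the peritoneum, a treatment that destroys hair cells, and in the control group saline. The study's results give day 30 after injection as the time point used for the transcriptome of degeneration, and the labels do not state a day. Neither the labels nor the methods state whether a library held 1 animal or pooled cochleae. The p-values therefore measure the spread between these libraries only.

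Type I SGNs are the myelinated neurons that carry sound information from inner hair cells to the brainstem, whereas the sparse type II SGNs contact outer hair cells. Type I neurons fall into subtypes Ia, Ib and Ic, which differ in gene expression, in where they contact the inner hair cell and in firing properties. Subtype Ia neurons hold the most calretinin, the product of Calb2, and contact the side of the inner hair cell that faces the pillar cells. The study describes Calb2 as a marker of both Ia and Ib, so that its level is not that of subtype Ia alone. Subtype Ic neurons express Lypd1, Runx1, Grm8 and Pou4f1 and contact mostly the side that faces the modiolus. The markers are graded, and several of them are also expressed outside the ganglion.

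The table held 12480876 to 15549319 counts per library. The label names SGNs as the cell type, and the whole modiolus was sampled. A gene was listed if at least 1 of its transcripts was in the deposited table, so that sums cover listed transcripts only. Among the genes of all SGNs, Snap25 had 1 of 3, Syt1 1 of 6 and Map2 7 of 24 annotated transcripts listed. Genes of all SGNs (20 of 20 listed) had summed levels of 10924 to 14672 CPM (counts scaled to a common normalized library size) in controls and of 7031 to 9983 CPM in degenerated ones. Schwann cell genes, with 8 of 10 listed, ranged from 5518 to 9791 CPM in controls and 4900 to 7728 CPM in degenerated ones, and erythroid genes (5 of 7 listed) from 6400 to 41372 and from 3479 to 16706 CPM. Control replicate 3 held 526 CPM of skeletal muscle genes, against 6.90 to 16.9 in the other libraries. Bone genes (5 of 8 listed) had 479 to 681 CPM in controls and 120 to 232 CPM in degenerated libraries, without overlap, and the part of bone content in the values below was not tested. Of the markers chosen for subtype Ib, Lrrc52 had no listed transcript. Calb1 had 0.158 to 0.463 CPM from 2 of its 3 annotated transcripts. No level of subtype Ib could therefore be given from them.

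The deposited table lists transcripts, not genes, and for the members it lists 15 of 29 annotated transcripts: every transcript of Calb2 and Pou4f1, 1 of 2 of Pcdh20, 1 of 4 of Rxrg, 1 of 5 of Lypd1 and 4 of 7 each of Runx1 and Grm8. Values of the last 5 genes describe only the listed part. Promoter sequence is given here for start sites near which listed transcripts begin in the annotation. RefSeq promoters of GRCm38.p6 matched 6 members, all but Calb2. Below are the bases before 5 start sites, 5′ to 3′ on the gene's strand. They are given for listed transcripts of Rxrg, Lypd1 and Pou4f1. For Runx1 the distal and the proximal start are given, near which different listed transcripts begin. For the distal start of Runx1, 175 bases without annotated exon are shown, and for the others 250. Capitals mark ACCACA, the reverse complement of TGTGGT, the core that RUNX factors bind.
Rxrg (chr1:167598112-167598361, + strand): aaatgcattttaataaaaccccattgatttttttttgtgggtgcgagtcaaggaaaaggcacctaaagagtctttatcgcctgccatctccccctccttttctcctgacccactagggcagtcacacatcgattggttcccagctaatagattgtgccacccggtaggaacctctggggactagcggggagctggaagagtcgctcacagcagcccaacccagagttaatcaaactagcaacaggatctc
Lypd1 (chr1:125912215-125912464, - strand): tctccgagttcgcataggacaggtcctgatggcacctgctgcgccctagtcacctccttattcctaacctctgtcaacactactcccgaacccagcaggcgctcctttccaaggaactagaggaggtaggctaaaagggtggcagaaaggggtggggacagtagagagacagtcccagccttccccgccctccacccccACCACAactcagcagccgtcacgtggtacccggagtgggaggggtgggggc
Pou4f1 (chr14:104468000-104468249, - strand): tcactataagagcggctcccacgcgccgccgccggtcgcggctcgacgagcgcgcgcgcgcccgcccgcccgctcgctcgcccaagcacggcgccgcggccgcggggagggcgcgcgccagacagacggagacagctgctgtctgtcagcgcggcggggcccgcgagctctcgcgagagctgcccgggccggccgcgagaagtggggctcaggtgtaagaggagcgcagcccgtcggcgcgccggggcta
Runx1 distal (chr16:92826150-92826324, - strand): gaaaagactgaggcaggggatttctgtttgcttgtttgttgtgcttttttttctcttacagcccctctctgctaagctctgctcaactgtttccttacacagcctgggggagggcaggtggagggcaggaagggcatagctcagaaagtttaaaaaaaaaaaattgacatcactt
Runx1 proximal (chr16:92697330-92697579, - strand): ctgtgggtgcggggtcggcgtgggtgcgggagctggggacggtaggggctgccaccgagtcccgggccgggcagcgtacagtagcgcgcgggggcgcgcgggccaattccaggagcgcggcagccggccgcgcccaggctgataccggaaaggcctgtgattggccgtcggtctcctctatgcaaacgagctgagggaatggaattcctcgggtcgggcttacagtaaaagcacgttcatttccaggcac
The start sites of Lypd1 and Pou4f1 coincided with the first base of a listed transcript, that of Rxrg lay 22 bases before Rxrg-201, and the proximal start of Runx1 lay 1 base before Runx1-202. Base composition set the windows apart: G and C made up 78.0% of the bases before Pou4f1 and 67.6% before the proximal start of Runx1, against 49.2% before Rxrg and 45.1% before the distal start of Runx1, where the median of all RefSeq windows was 52.4%. Of the motifs searched on both strands, TGTGGT was found once, before Lypd1, and stood in 14.0% of all 32851 windows of 250 bases. The nuclear receptor half-site AGGTCA (14.0% of all windows) and ATTAAT (4.39%), a core of POU4F sites, were in none of the printed windows. Another RefSeq start of Rxrg, at base 167618265, had AGGTCA 1 time in its window, which is not printed.

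Of the 7 members, 1 was called downregulated, Calb2. A call required an unadjusted p below 0.01 and a log2 fold change beyond 0.2 in either direction, criteria that the study states for another comparison of its own, of knockout with wild-type mice, and not for this one. The test was the quasi-likelihood test of edgeR for degenerated against control. By these criteria 2.73% of the 14118 genes tested were called, 0.715% lower and 2.01% higher. Rxrg and Lypd1 had an unadjusted p between 0.01 and 0.05, and both were lower. In all, 3 members had an unadjusted p under 0.05, each of them lower, as did 9.68% of the genes tested, with 3.6% lower. With p-values adjusted over the whole table by the Benjamini-Hochberg method, 0 members and 0 genes were under 0.05 in edgeR, where 1367 genes had an unadjusted p under 0.05. DESeq2 gave 315 genes at an adjusted p under 0.05, edgeR's exact test 115 and limma-voom 0. The direction was lower in 5 members and higher in 2, and 50.3% of the genes tested were lower. In bulk tissue, fewer neurons of a subtype and less RNA per neuron cannot be told apart.

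**Figure D1:**
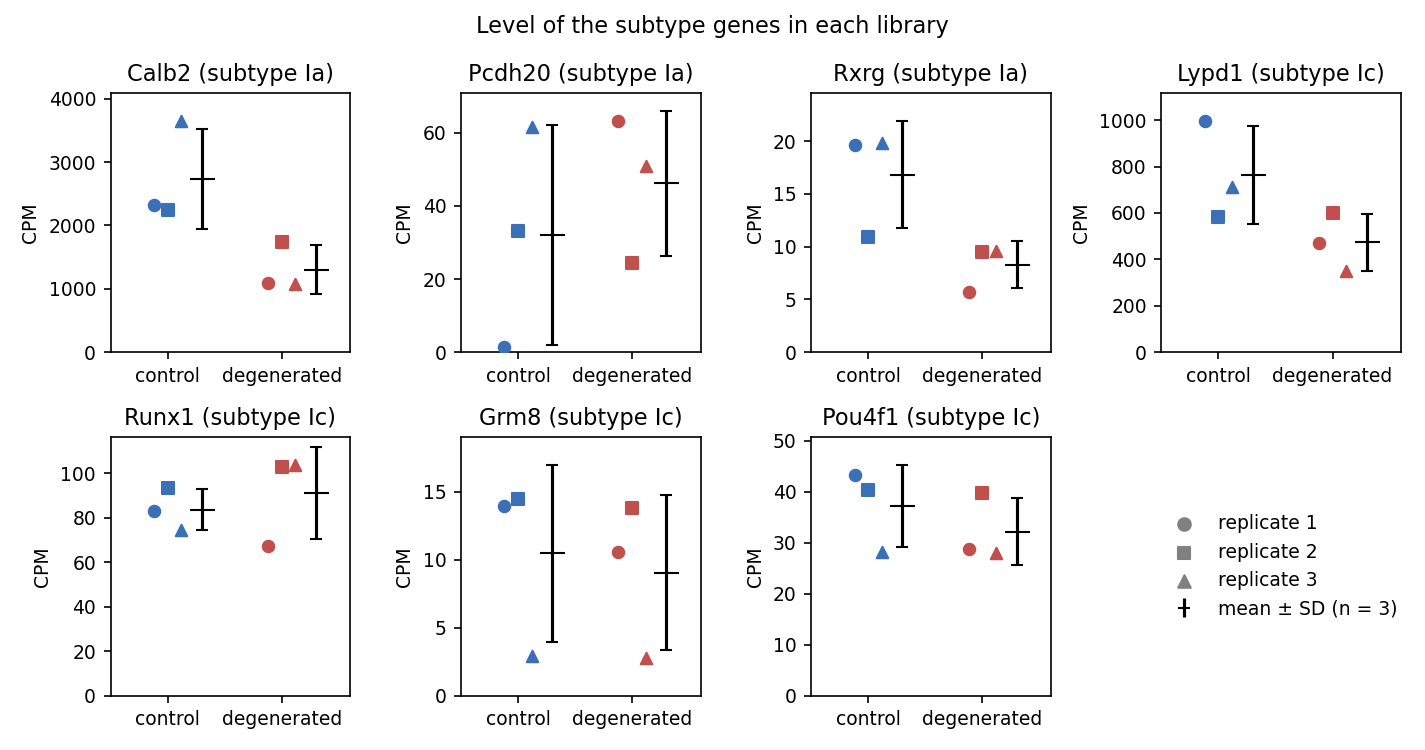
CPM of each member in every library, with control in blue and degenerated in red, the marker shape giving the replicate, and the bar the mean ± SD of 3 libraries. The control and degenerated points are apart in Calb2 and Rxrg, and overlap in the other 5 genes.

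Among the subtype Ia genes, Calb2 had the largest number of counts. It encodes calretinin, a calcium buffer with EF-hands (ENSMUSG00000003657, chromosome 8 of GRCm38 from 110137502 to 110168210). Control libraries held 2317, 2250 and 3646 CPM, and degenerated libraries 1093, 1745 and 1072 CPM. Every degenerated library lay below every control library, and the highest was control replicate 3. Means stood at 2738 ± 787 and 1303 ± 382 CPM (SD, n = 3 each). This gave a log2 fold change of -1.07 ± 0.29 (SE), with a 95% interval of -1.77 to -0.37. The level in degenerated libraries was thus 47.6% of control, with an interval of 29.3% to 77.4%. Unadjusted and adjusted p (edgeR) were 0.00964 and 0.362, and over the alternatives the adjusted value ranged from 0.0675 to 0.628.

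The call of Calb2 lay close to its threshold. It was lost when any library but degenerated replicate 2 was left out. Dropping a control gave log2 fold changes of -1.19 (replicate 1), -1.20 (replicate 2) and -0.82 (replicate 3), and dropping a degenerated library -0.97 (replicate 1) and -0.95 (replicate 3), with unadjusted p-values (edgeR) between 0.0126 and 0.0350. Calretinin is also found in inner hair cells. Of the 12 hair cell genes listed, 9 of the 10 tested were lower, and the list summed to 795, 566 and 523 CPM in controls and 522, 171 and 309 CPM in degenerated libraries. Chrna9, with 1 of 7 annotated transcripts listed, had 0 counts in every library. Ocm, a calcium buffer of outer hair cells, had a log2 fold change of -5.83. Otof, a marker of inner hair cells, had 236 ± 66.8 and 160 ± 89.5 CPM (SD, n = 3 each), and its log2 fold change was -0.56 (adjusted p 0.735, edgeR). The part of hair cells in the value of Calb2 was not tested.

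Rxrg encodes retinoid X receptor gamma, a nuclear receptor that pairs with retinoic acid and thyroid hormone receptors (ENSMUSG00000015843, chromosome 1 from 167598384 to 167639623). It had 19.7, 11.0 and 19.8 CPM in controls and 5.75, 9.51 and 9.63 CPM in degenerated libraries. The groups did not overlap, although control replicate 2 lay near the upper degenerated libraries. Rxrg had a log2 fold change of -1.02 ± 0.36 (SE; 95% interval -1.90 to -0.14), with an unadjusted p of 0.0300 (adjusted 0.461, edgeR), and the degenerated level was 49.3% of control. Rxrg passed the criteria with DESeq2 (log2 fold change -1.04, unadjusted p 0.00884) and with no other alternative. Retinoid X receptor gamma is also expressed in skeletal muscle, whose genes were high in control replicate 3. Without control replicate 3 the log2 fold change of Rxrg was -0.89. All 12 muscle genes were listed and 4 of them were tested. Myh2, with 2 of 3 annotated transcripts listed, had 0 counts in every library. The part of muscle in the value of Rxrg was not tested.

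Calb2 and Rxrg were the only 2 members whose groups did not overlap in CPM, which held for 17.7% of the genes tested, and for 7.37% with the degenerated libraries lower. Pcdh20, the third gene of subtype Ia, encodes a protocadherin of cell adhesion (ENSMUSG00000050505, chromosome 14 from 88464743 to 88471396). Its listed transcript had 1.46, 33.2 and 61.4 CPM in controls and 63.1, 24.4 and 50.8 CPM in degenerated libraries. Control replicate 1 stood apart from the other libraries with 22 counts, where they held 347 to 963. Its log2 fold change was 0.53 ± 1.10 (SE; 95% interval -2.16 to 3.21; adjusted p 0.903, edgeR), and without control replicate 1 it was -0.04. The transcript not listed, Pcdh20-201, covers 92.5% of the bases of the listed one, so that the reads of the gene could be placed on either.

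Lypd1 had the highest level of the subtype Ic genes. It encodes a membrane-anchored protein of the Ly6 family that acts on nicotinic acetylcholine receptors (ENSMUSG00000026344, chromosome 1 from 125867622 to 125913101). Its listed transcript, which begins after the Lypd1 sequence printed above, had 995, 583 and 712 CPM in controls and 469, 598 and 352 CPM in degenerated libraries. Control replicate 2 lay below degenerated replicate 2, so that the groups overlapped by these 2 libraries. For Lypd1 the log2 fold change was -0.69 ± 0.27 (SE; 95% interval -1.36 to -0.02), with an unadjusted p of 0.0443 (adjusted 0.502, edgeR), or 39.0% to 98.3% of control. With each library left out in turn it stayed between -0.91 and -0.46. Gpr39 overlaps Lypd1 on the opposite strand and had no listed transcript, and the sources used here do not give whether the counting used strand. Without strand, reads of the overlap cannot be told apart.

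Pou4f1 encodes BRN3A, a POU-domain transcription factor of sensory neurons (ENSMUSG00000048349, chromosome 14 from 104461676 to 104467999). It had 43.3, 40.3 and 28.1 CPM in controls and 28.7, 39.8 and 27.9 CPM in degenerated libraries. The ranges of the groups overlapped almost wholly. Pou4f1 had a log2 fold change of -0.21 ± 0.25 (SE; 95% interval -0.82 to 0.40; adjusted p 0.822, edgeR), which corresponds to 56.8% to 132% of control.

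Runx1 encodes a runt-domain transcription factor that is best known for blood cell formation and is also used by sensory neurons (ENSMUSG00000022952, chromosome 16 from 92601466 to 92826149). It had 83.3, 93.2 and 74.7 CPM in controls and 67.4, 103 and 104 CPM in degenerated libraries. The lowest and the highest library both belonged to the degenerated group. Runx1 had a log2 fold change of 0.13 ± 0.20 (SE; 95% interval -0.37 to 0.62; adjusted p 0.873, edgeR), or 77.2% to 154% of control. Genes of blood precursors, megakaryocytes and mast cells, 9 of 12 listed, summed to 274, 985 and 408 CPM in controls and 284, 250.5 and 540.5 CPM in degenerated libraries. Of these, Cpa3, with 1 of 2 annotated transcripts listed, had 0 counts in every library. Macrophage genes, 8 of 12 listed, ranged from 850 to 2741 CPM in controls and from 1654 to 3012 CPM in degenerated ones. Their part in the level of Runx1 was not tested.

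Grm8 encodes a group III metabotropic glutamate receptor, which lowers transmitter release at presynaptic endings (ENSMUSG00000024211, chromosome 6 from 27275119 to 28135178). It had 14.0, 14.5 and 2.94 CPM in controls and 10.6, 13.8 and 2.76 CPM in degenerated libraries. In both groups replicate 3 was the lowest, with 46 and 35 counts, and the difference between libraries of 1 group was larger than that between the groups. Grm8 had a log2 fold change of -0.21 ± 0.79 (SE; 95% interval -2.15 to 1.73; adjusted p 0.949, edgeR). Its direction turned when control replicate 1 (0.04), control replicate 2 (0.10) or degenerated replicate 3 (0.22) was left out. A difference in Grm8 within this interval could not be detected with these libraries.

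**Figure D2:**
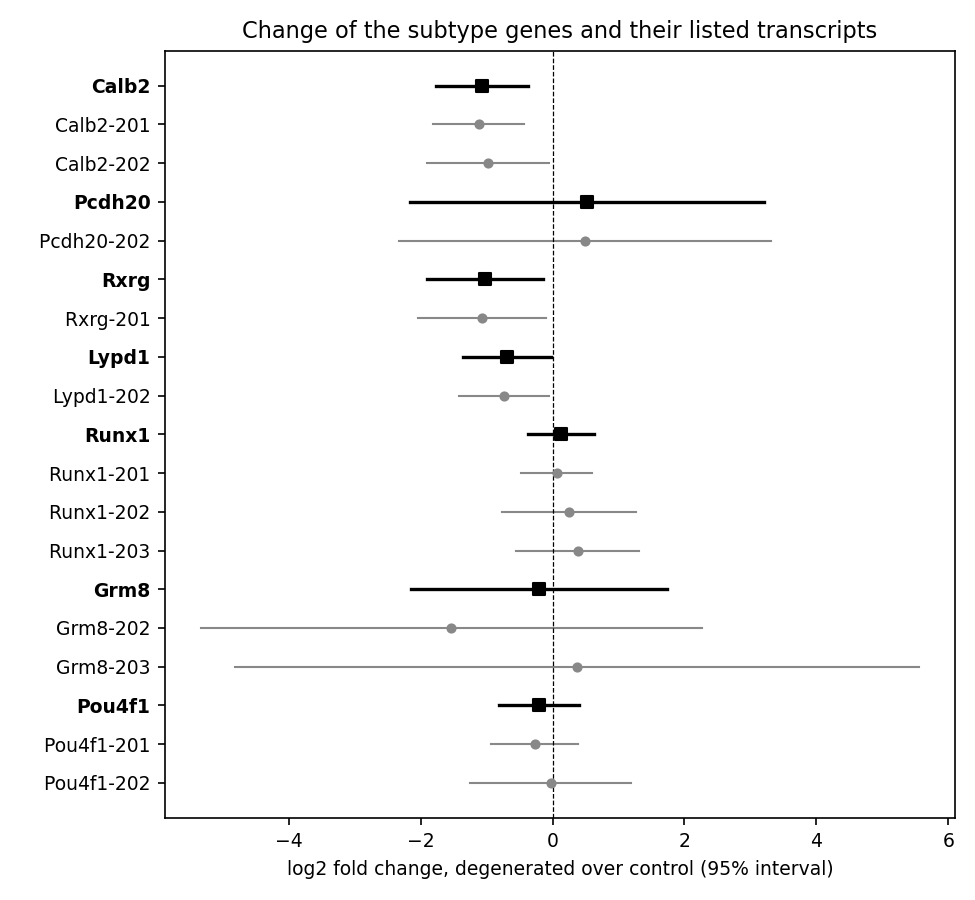
Log2 fold change of degenerated over control, with its 95% interval, for each member gene (black squares, bold labels) and each of its listed transcripts that passed the filter (grey circles). The intervals of Calb2, Rxrg and Lypd1 lie below 0, and those of Pcdh20 and Grm8 are the widest.

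Transcript by transcript, 12 of the 15 listed transcripts of the members passed the filter, and 1, Calb2-201, met both criteria, which 1.79% of the 26065 transcripts tested met. An unadjusted p under 0.05 was reached by 4 of the 12, Calb2-201, Calb2-202, Rxrg-201 and Lypd1-202, against 7.55% of all transcripts tested, and an adjusted p under 0.05 by 0 of the 12, against 0.0153%. Calb2-201 had 2383, 2294 and 3688 CPM in controls and 1084, 1712 and 1067 CPM in degenerated libraries. Its log2 fold change was -1.11 ± 0.28 (SE), with an unadjusted p of 0.00785 (adjusted 0.540, edgeR). Calb2-202, in which 312 of 1080 bases are in no other annotated transcript, took 0.343% to 0.442% of the counts of the gene. It had 8.33, 7.89 and 13.8 CPM in controls and 4.36, 6.10 and 4.74 CPM in degenerated libraries, and its log2 fold change was -0.98 ± 0.37 (SE; unadjusted p 0.0406, adjusted p 0.642, edgeR). Both transcripts of Calb2 were thus lower in every degenerated library than in any control library, as were Rxrg-201 and Lypd1-202. Among all transcripts tested, 16.4% had groups that did not overlap. The libraries of Lypd1 overlapped in the table of genes and not in that of transcripts, since the scaling factors of the tables differ, with 597 CPM in control replicate 2 and 589 CPM in degenerated replicate 2.

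Runx1 was counted almost wholly on its long transcript from the distal start. Runx1-201, with 5861 bases and its start 75 bases before the RefSeq distal start, took 93.6%, 91.0% and 93.8% of the counts of the gene in controls and 90.3%, 92.8% and 91.3% in degenerated libraries. The ranges overlapped. Runx1-202, which begins at the proximal start, and Runx1-203, which begins further into the gene, took 4.02% to 6.83% and 1.35% to 2.94%. They had 3 and 0 bases in no other annotated transcript, so that their counts rest on how reads of shared exons were divided. Runx1-201 had 2265 such bases, and its 3′ end reaches base 92601466, beyond that of Runx1-202 at 92603656. Its share of counts therefore does not measure use of the distal start. The log2 fold changes of the 3 tested transcripts were 0.06 for Runx1-201, 0.25 for Runx1-202 and 0.38 for Runx1-203, with standard errors of 0.22, 0.41 and 0.38 (adjusted p 0.971, 0.926 and 0.867, edgeR). For Runx1-201 the direction turned when control replicate 3 (-0.01), degenerated replicate 2 (-0.03) or degenerated replicate 3 (-0.05) was left out.

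The coding transcript Pou4f1-201 took 91.2% to 95.7% of the counts of Pou4f1 over the 6 libraries, and the processed transcript Pou4f1-202 the rest. Their log2 fold changes were -0.27 ± 0.27 and -0.03 ± 0.50 (SE), with adjusted p-values (edgeR) of 0.867 and 0.996. The counts of Grm8 moved between transcripts from library to library. Grm8-202 took 68.2%, 21.0% and 54.3% in controls and 40.0%, 0% and 28.6% in degenerated libraries. Grm8-203 took 27.0%, 75.6% and 0% in controls and 60.0%, 96.9% and 0% in degenerated libraries, and the 0 counts in replicate 3 of each group allow up to 3 counts. Grm8-206, a transcript that encodes no protein, took 45.7% in control replicate 3 and 71.4% in degenerated replicate 3, and at most 3.06% elsewhere. Of the bases of Grm8-203, 0 are in no other annotated transcript, and the 3 transcripts of Grm8 that are not listed cover 83.7% of them.

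**Figure D3:**
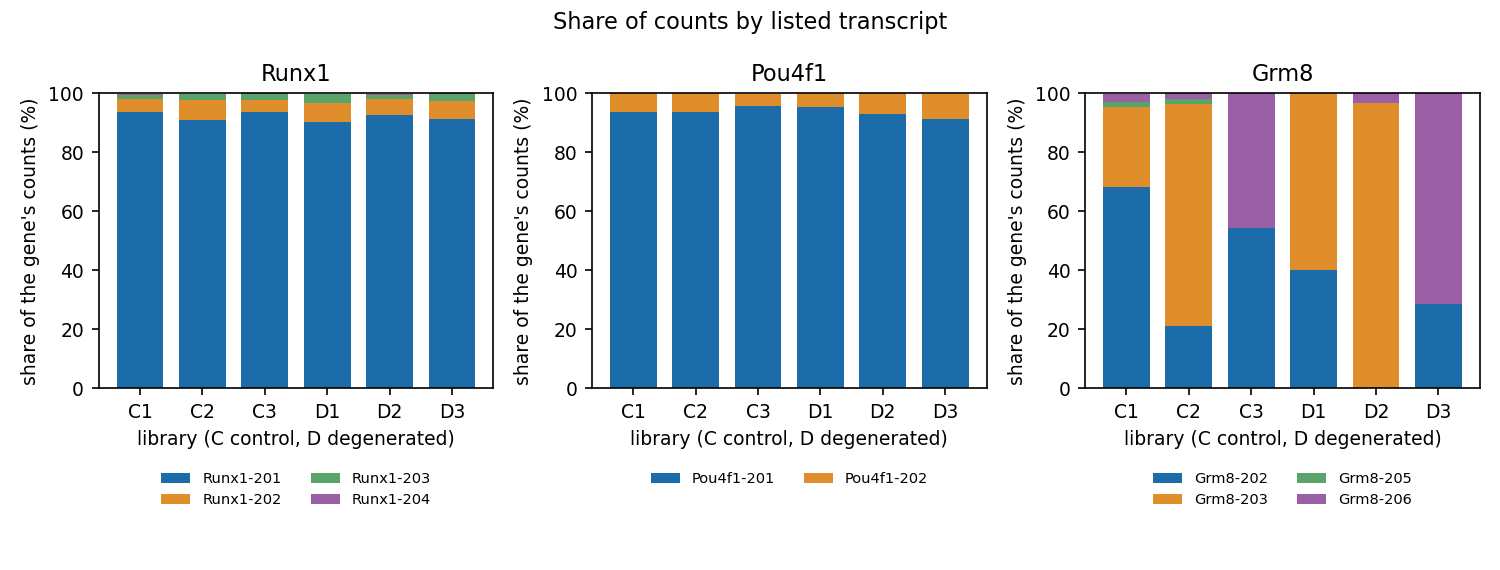
Share of each gene's listed counts (%) taken by each listed transcript in control (C1 to C3) and degenerated (D1 to D3) libraries. Runx1-201 holds at least 90.3% and Pou4f1-201 at least 91.2% of the counts in every library, and the shares of Grm8 differ between libraries of both groups.

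Levels of different genes were compared per length, as TPM (counts per base of transcript, scaled to a common total) over the listed transcripts. In controls the order was Calb2 with 3494 ± 984 TPM, Lypd1 with 219 ± 75.3, Runx1 with 28.1 ± 3.29, Pou4f1 with 19.4 ± 5.55, Pcdh20 with 16.9 ± 16.0, Rxrg with 14.7 ± 5.05 and Grm8 with 5.78 ± 3.93 (SD, n = 3). Calb2 and Lypd1 stood apart from each other and from the rest by more than their SD. From Runx1 downwards, each gene and its neighbour in the order had overlapping ranges of mean ± SD. In degenerated libraries Calb2 had 1809 ± 600 TPM, Lypd1 145 ± 41.9, Runx1 33.8 ± 8.11, Pcdh20 26.7 ± 10.7, Pou4f1 18.8 ± 4.92, Rxrg 7.79 ± 2.27 and Grm8 5.15 ± 3.68 (SD, n = 3). Calb2 and Lypd1 again stood first and second, and Pcdh20 and Pou4f1 changed places within their SD.

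Whether genes of subtype Ia and of subtype Ic changed unequally was examined within each library, by the difference of log2(CPM + 1) between 2 members. Over all 21 pairs of members, the groups did not overlap in 3, and each of these was 1 of the 12 pairs of an Ia with an Ic gene. Over all pairs of tested genes, the groups did not overlap in 16%, so that the count among the members was near that of any genes. Calb2 minus Runx1 was 4.58 to 5.59 in controls but 3.36 to 4.07 in degenerated libraries, a mean difference of -1.17. Calb2 minus Pou4f1 lay between 5.71 and 6.97 and between 5.20 and 5.42 (mean difference -0.87). Rxrg minus Runx1 lay between -2.98 and -1.86 and between -3.34 and -3.30 (mean difference -1.03). In a two-sided exact permutation test, each of these had a p of 0.1, the smallest that 3 libraries against 3 allow, and an adjusted p of 0.63 over the 21 pairs.

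In the other 9 pairs of an Ia with an Ic gene the groups overlapped. Calb2 minus Lypd1 was 1.22 to 2.35 in controls, next to 1.22 to 1.61 in degenerated libraries, and the mean difference was -0.38 (exact permutation p 0.3, adjusted p 0.63). Rxrg minus Lypd1 overlapped as well, with a mean difference of -0.24 (exact permutation p 0.6, adjusted p 0.7). The pairs with Pcdh20 had mean differences above 0, from 1.23 with Runx1 to 2.02 with Lypd1, and control replicate 1 gave the lowest control value in each. Calb2 minus Rxrg, within subtype Ia, had a mean difference of -0.15 (exact permutation p 0.5, adjusted p 0.7).

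**Figure D4:**
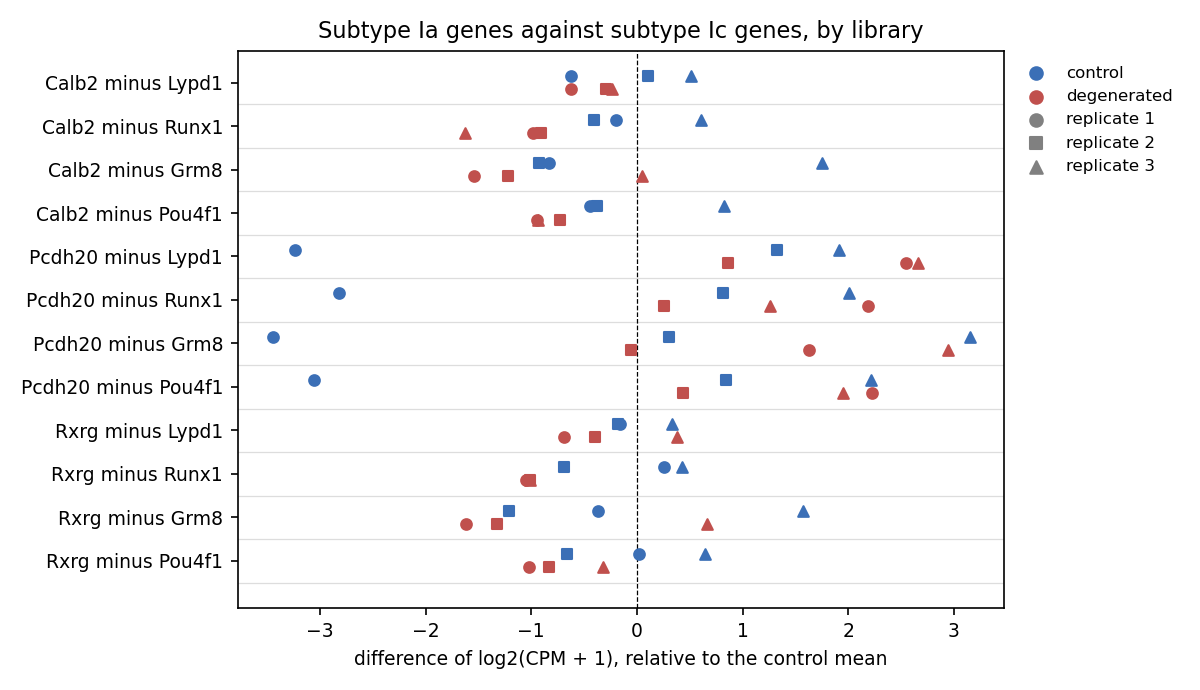
Difference of log2(CPM + 1) between an Ia gene and an Ic gene in each library, set to 0 at the mean of the controls, with controls in blue, degenerated libraries in red and the marker shape giving the replicate. Red and blue points are apart in Calb2 minus Runx1, Calb2 minus Pou4f1 and Rxrg minus Runx1, and overlap in the other 9 pairs.

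The members were set beside the genes of all SGNs, whose values cover listed transcripts only. Of the 20 genes of all SGNs, 19 were tested, 14 were lower and 5 higher, with a median log2 fold change of -0.43, where the median over all genes tested was -0.003. The groups did not overlap in 8 of the 19, against 17.7% of all genes tested. Pvalb, which encodes the calcium buffer parvalbumin, was the 1 gene of this list called, where 2.73% of all genes tested were called and 0.715% called lower. It had 784 ± 53.6 CPM in controls and 448 ± 108 in the degenerated group (SD, n = 3 each), which gave -0.81 on the log2 scale (adjusted p 0.342, edgeR). Nefh, the heavy neurofilament subunit, had a log2 fold change of -0.73 and Snap25, a protein of vesicle release, one of -0.62, against -0.04 for the neuronal tubulin Tubb3. The mean of log2(CPM + 1) over the 19 genes was 7.87, 7.67 and 7.70 in controls and 7.48, 7.56 and 7.30 in degenerated libraries. The log2 fold changes of the 19 genes ran from -0.84 for Elavl4 to 0.42 for Ntrk3. Relative to that mean, Calb2 was different by -0.77 on average, with 3.31 to 4.13 in controls and 2.62 to 3.21 in degenerated libraries. These ranges did not overlap, and the share of all genes without overlap on this scale was not computed. Relative to the same mean, the differences of the group means were -0.62 for Rxrg, -0.39 for Lypd1, 0.10 for Pou4f1, 0.13 for Grm8, 0.40 for Runx1 and 1.64 for Pcdh20, and in Rxrg, with -4.09 to -3.32 in controls and -4.73 to -3.89 in degenerated libraries, the groups overlapped on this scale. These differences carry no test and depend on the genes of the list. Its mean differed by -0.30 between the groups, while Pvalb, Nefh and Snap25 were lower by more and 5 of the 19 genes were higher.

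**Figure D5:**
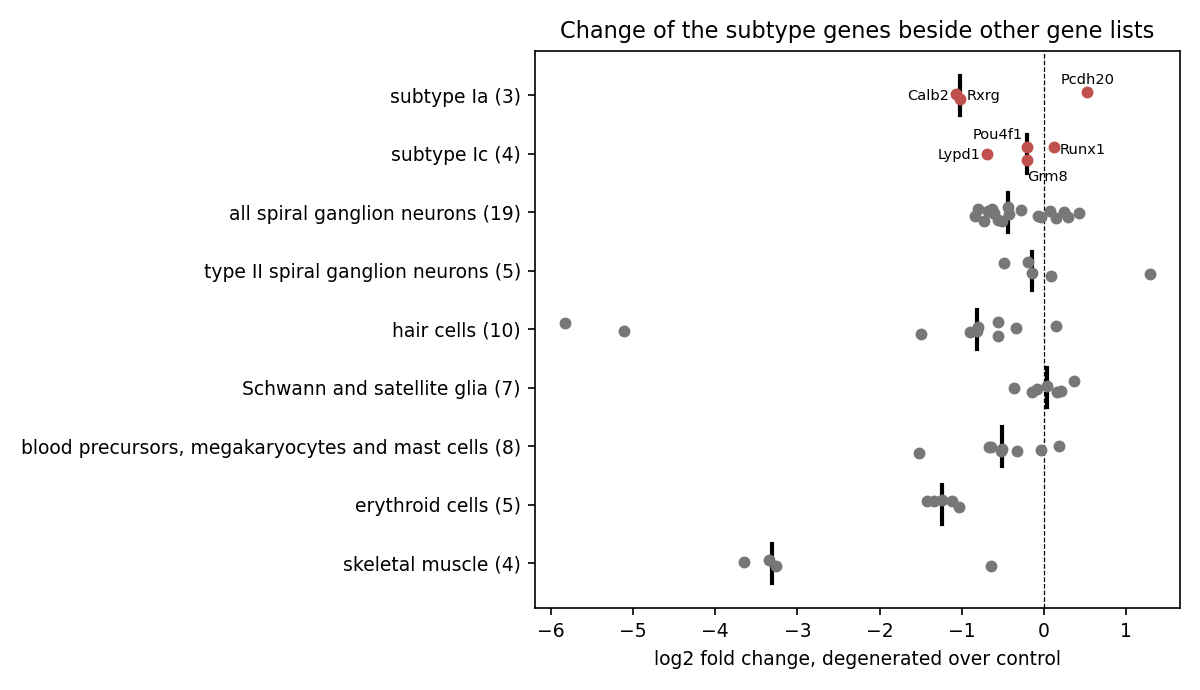
Log2 fold change of degenerated over control for each tested gene of 9 lists, with the number of tested genes in parentheses, members in red and a bar at the median of each list. Calb2 and Rxrg lie below the median of the genes of all SGNs, -0.43, as does Lypd1, and the other 4 members lie above it.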

How the data were processed

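RNA of the modiolus was sequenced in 3 control and 3 degenerated libraries, matched to columns by sample title. The authors aligned reads with Hisat2 2.1.0 and used StringTie 1.3.3b per the study's methods, whereas the submitters' processing notes list Bowtie 0.12.2 and the builds mm8 and mm10. The deposited values are raw counts per Ensembl transcript, without normalization. Neither annotation nor counting step is given in the sources used here. Of 65535 listed transcripts, 65272 matched GENCODE M21 (GRCm38), 46.0% of those annotated, and were summed per gene, while 263 with 0.125% of the counts were left out. A change in which transcripts are used can therefore change a gene's counted part.

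The test was the robust quasi-likelihood F test of edgeR 4.0.16 (R 4.3.3) after filterByExpr and TMM factors of 0.983 to 1.02, without covariates, over all genes and, separately, over all transcripts, with Benjamini-Hochberg adjustment. Calls required an unadjusted p below 0.01 and a log2 fold change beyond 0.2 either way. The standard error was the log2 fold change over the square root of F. Counts of 12480876 to 15549319 per library cover listed transcripts only. Alternatives were limma-voom (limma 3.58.1), the exact test of edgeR, DESeq2 1.42.0, RLE and upper-quartile factors, no filter, a mean count of at least 10, each library left out, protein-coding transcripts only and a replicate block. Permutation tests used scipy 1.17.1.

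Named were all members and, from other lists, called genes or otherwise the 2 with the smallest p. For Schwann cell genes these are not reported here. Otof, Nefh, Snap25, Tubb3, Rxra and Isl1 were named after their values were seen. Elavl4 and Ntrk3 were named as the ends of a range, and Map2 and Syt1 for the part of their transcripts listed. Chrna9, Myh2, Cpa3 and Grm6 were named as genes without counts, and Lrrc52 and Calb1 as the markers chosen for subtype Ib. Members and lists were chosen with earlier results of these data known. On simulated counts of 14118 genes, the criteria called 30.9% of genes changed by an absolute log2 fold change of 1, 80.9% of those changed by 2 and 0.854% of unchanged genes. On 26065 simulated transcripts these were 8.89%, 48.3% and 0.713%.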

Additional observations from a re-analysis of the deposited data

How the results depend on the processing

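The direction of Calb2, Rxrg, Lypd1, Runx1 and Pou4f1 was the same in all 15 alternatives tried for each. The log2 fold change ranged from -1.35 to -0.82 for Calb2, from -1.25 to -0.82 for Rxrg, from -0.91 to -0.46 for Lypd1, from 0.02 to 0.29 for Runx1 and from -0.40 to -0.10 for Pou4f1. Calb2 kept its call in 8 of the 15, and beside the left-out libraries and the block it missed the criteria with a mean count of at least 10 (unadjusted p 0.0102). With each library left out, Pcdh20 ranged from -0.041 to 1.39 (1.56 in limma-voom and 1.04 with a replicate block), Grm8 from -0.67 to 0.22, Pcdh20-202 from -0.073 to 1.37, Runx1-201 from -0.046 to 0.25, Grm8-203 from -0.64 to 1.74 and Pou4f1-202 from -0.32 to 0.25. The number of genes called higher was 284, with 465 in DESeq2, 184 from protein-coding transcripts only and 144 to 339 with each library left out (185 and 171 when control replicates 2 and 3 were dropped, 144 and 179 when degenerated replicates 2 and 3 were). The number called lower was 101, with 310 in DESeq2 and 76 to 158 with each library left out, 158 without control replicate 1. At an adjusted p under 0.05 there were 0 genes, with 315 in DESeq2, 115 in edgeR's exact test and 0 to 3 with each library left out (2 when degenerated replicate 2 was dropped, 3 when degenerated replicate 3 was). The causes of these shifts were not tested. Control and degenerated libraries share replicate numbers. The deviations of same-numbered libraries correlated at 0.16, -0.09 and 0.07, and those of differently numbered libraries at -0.28 to 0.24. These correlations cannot decide whether the numbers pair the libraries. With the replicate number as a block, 160 genes were called higher and 58 lower, 0 had an adjusted p under 0.05, and the log2 fold change of Calb2 was -1.07 (unadjusted p 0.0273), of Rxrg -1.01 (0.0706) and of Lypd1 -0.69 (0.0700), while the standard error of Grm8 went from 0.79 to 0.28. Grm8 had 35 to 211 counts per library, and the part of depth in its interval was not tested.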

Other observations

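Relatives of the members were measured as families, in which the members themselves are not counted. Groups that do not overlap are given for single genes here and in the next paragraph, and 17.7% of all genes tested had such groups. Of the POU4 and LIM factors of sensory neurons, 3 of 4 were tested. Pou4f2, which encodes the BRN3B factor, had 37.5, 31.6 and 34.5 CPM in controls and 19.2, 24.8 and 19.6 CPM in degenerated libraries. These groups did not overlap, unlike those of Pou4f1, and the log2 fold change was -0.70 ± 0.20 (SE; unadjusted p 0.0109, adjusted p 0.378, edgeR). Pou4f3, a factor of hair cells, had a log2 fold change of -0.81 (unadjusted p 0.218) and Isl1 of 0.25 (unadjusted p 0.391). Of the retinoid and thyroid hormone receptors, 5 of 7 were tested, 4 were higher and 0 were called. Thra, thyroid hormone receptor alpha, had 61.4, 46.3 and 42.6 CPM in controls and 75.9, 70.4 and 92.7 CPM in degenerated libraries, which did not overlap (log2 fold change 0.67, unadjusted p 0.0144, adjusted p 0.398, edgeR). Rara had a log2 fold change of 0.20 (unadjusted p 0.279) and Rxra, the partner receptor of many tissues, of 0.05.

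Among 9 delta protocadherins, 7 were tested, 3 were lower and 4 higher. Pcdh1 had 7.74, 9.06 and 5.55 CPM in controls and 12.1, 12.6 and 13.4 CPM in degenerated libraries, without overlap (log2 fold change 0.77, adjusted p 0.470, edgeR), and Pcdh10 had a log2 fold change of 0.61 (unadjusted p 0.150). Beside the member Grm8, Grm7 was the 1 group III glutamate receptor tested, with 40.5 ± 8.32 and 43.6 ± 9.77 CPM (SD, n = 3 each). Grm6, with 3 of 4 annotated transcripts listed, had 0 counts in every library. Of the Runx family and its partners beside the member Runx1, 3 of 5 were tested and all 3 were lower, none called. Runx1t1 was at -1.55 (unadjusted p 0.183, edgeR) and Runx2 at -0.26 (unadjusted p 0.349, edgeR). Of the Ly6 and Lypd genes, 4 of 6 were tested, 2 in each direction, with Ly6e at 0.63 (unadjusted p 0.279) and Lypd6 at 0.45 (unadjusted p 0.327). Of the EF-hand calcium buffers, Pvalb and Ocm were tested and both were called lower.

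Type II SGN genes, of which 5 of 6 were listed, summed to between 18.1 and 30.6 CPM in controls and between 16.1 and 32.2 CPM in degenerated libraries, and the 5 tested had a median of -0.14 on the log2 scale, with 0 called. Prph was at unadjusted p 0.440, higher in the mean, and Calca had a log2 fold change of -0.49 (unadjusted p 0.442). Schwann cell genes had a median of 0.03 over 7 tested genes, 0 of them called. Of the bone genes, with a median of -1.54, Bglap and Bglap2 were called lower, and of the macrophage genes, with a median of -0.01, C1qb and C1qc were called higher. Erythroid genes had a median of -1.24 with 0 of 5 called, led by Hbb-bs (unadjusted p 0.126) and Hba-a1 (0.159). Blood precursor genes had a median of -0.51 with 0 of 8 called, led by Kit (0.274) and Spi1 (0.351), and skeletal muscle genes a median of -3.31 with 0 of 4 called, led by Mylpf (0.0511) and Atp2a1 (0.0595). Of the hair cell genes, Ocm and Slc26a5 were called lower.

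Over the 6 libraries, the genes whose log2(CPM + 1) was most like that of a member, out of 9896 genes with a mean of at least 5 CPM, had Pearson correlations of 0.970 to 0.998. They were Nat9, Slco5a1 and Cdpf1 for Calb2, Pcdhb12, Mrps2 and Zfp74 for Rxrg, Sec11c, Pla2g4b and Seh1l for Pcdh20, Tgfb1i1, Gjd2 and Chrnb2 for Lypd1, Tbx2, Lmtk2 and Slc22a15 for Runx1, Ankrd27, Nfatc2 and Kif1bp for Grm8, and Nptxr, Rwdd4a and Cntnap1 for Pou4f1. With 6 points that share libraries, these correlations are a description. Among the members, Calb2 and Rxrg correlated at 0.84, Calb2 and Lypd1 at 0.77, Rxrg and Lypd1 at 0.75 and Grm8 and Pou4f1 at 0.82, while Pcdh20 and Pou4f1 correlated at -0.77.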
